A study of Mus musculus with 2 samples.

Results

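The 10 genes described here make or sense leukotrienes and prostaglandins. They were chosen by name, from 22337 symbols in the expression table, for their place in the pathway and not for a measured value. The 5 leukotriene genes are Alox5, Alox5ap, Lta4h, Ltc4s and the receptor gene Ltb4r1, and the 5 prostaglandin genes are Ptgs1, Ptgs2, Ptges and the receptor genes Ptger2 and Ptger4. The cells came from Bm12 donor hearts 14 days after transplantation into B6 recipients, a mouse pair that differs at an MHC class II molecule. The hearts numbered 1, 2 and 3 came from il33+/+ donors (BM12 WT, here IL-33+), and hearts 4, 5 and 6 from il33-/- donors (BM12 IL33 KO, here IL-33-). Recipients were B6 in both groups, so IL-33 was missing from donor cells alone, and a separate hashtag antibody marked the cells of each heart before pooling. Cells were taken from digested hearts by a density gradient for leukocytes.

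Leukotrienes and prostaglandins are lipid signals that cells make from arachidonic acid, which phospholipases release from membranes. 5-lipoxygenase (Alox5), helped by its activating protein (Alox5ap), forms leukotriene A4, which Lta4h turns into leukotriene B4 and Ltc4s into leukotriene C4. Leukotriene B4 draws neutrophils, macrophages and activated T cells to inflamed tissue through the receptor encoded by Ltb4r1. The cyclooxygenases COX-1 (Ptgs1) and COX-2 (Ptgs2) form prostaglandin H2, Ptges turns it into prostaglandin E2, and the EP2 and EP4 receptors (Ptger2, Ptger4) sense prostaglandin E2 through cAMP.

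The table held 4441 cells of 14 annotated types, 866, 230 and 1666 from hearts 1, 2 and 3 and 836, 284 and 559 from hearts 4, 5 and 6. A cell held 1500 to 14977 UMIs (unique molecular identifiers, 1 per captured transcript), and a heart 908129 to 7012943. Levels are given as CPM (counts per 1e+06 UMIs of a cell), as the mean of a heart's cells of the given type, and the heart is the replicate. The labels could not be checked on Il33 itself. In fibroblasts it was at 24.3, 0 and 50.7 CPM in hearts 1, 2 and 3 and at 32.6, 73.8 and 16.1 CPM in hearts 4, 5 and 6, so IL-33+ and IL-33- stand below for the labels of the hearts. The marker lists peaked in the types of their names for macrophages, monocytes, cDCs, B cells, NK cells, Tregs and fibroblasts. The cells annotated Mo-DCs stood apart. They held the highest sum of neutrophil markers (16126 CPM against 270.0 in cDCs), all 8 of which were found, and 77 CPM of cDC markers. Heart 4 was the highest, at 70845 CPM of neutrophil markers. Macrophage markers summed to 3971 CPM in Mo-DCs, second to macrophages at 5794. That sum was above the neutrophil sum in hearts 1 (4451 against 2050) and 6 (9825 against 2400), and below it in hearts 2, 3, 4 and 5. Endothelial markers peaked in the cells annotated fibroblasts, and ILC2 markers in those annotated Tregs.

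Each member was read from between 38 UMIs (Alox5) and 3943 UMIs (Ptgs2). The leukotriene genes were read mostly from myeloid cells, with the exception of Lta4h, and the prostaglandin enzymes mostly from fibroblasts, macrophages and Mo-DCs, while the prostaglandin receptors were read mostly from lymphocytes. The types were annotated from clusters of these same cells, so levels across types are a description without a test. They are means ± SD over the hearts with at least 10 cells of the type.

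**Figure D1:**
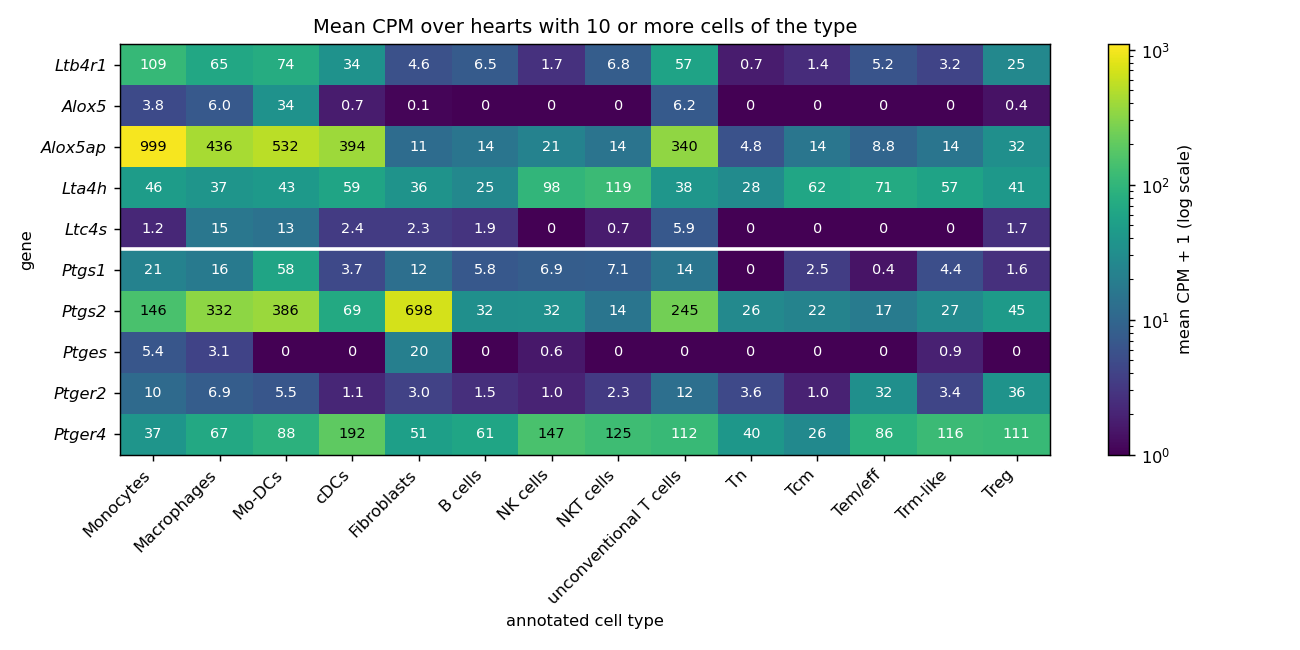
Mean CPM of each gene (rows, leukotriene genes above the white line) in each annotated type (columns), averaged over hearts with 10 or more cells of the type, with colour on a log scale. Alox5ap peaked in monocytes at 999 CPM, Ptgs2 in fibroblasts at 698 CPM and Ptger4 in cDCs at 192 CPM.

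Alox5ap was the leukotriene gene with the most UMIs (3673), and the myeloid types held most of them. Its level was 999 ± 99.9 CPM in monocytes (n = 4 hearts), 532 ± 159 in Mo-DCs (n = 4), 436 ± 55.7 in macrophages (n = 6), 394 ± 89.9 in cDCs (n = 4) and 340.4 ± 43.7 in unconventional T cells (n = 3). The monocytes stood above the Mo-DCs by more than the larger SD of the pair, and the unconventional T cells stood above the next type, Tregs, in the same way. From Mo-DCs down to unconventional T cells, no neighbours differed by more than their spread. A UMI was found in 98.7% of monocytes and in 3.85% of B cells, and in 75.6% and 2.47% once each cell was thinned to 1500 UMIs. Of the 83 unconventional T cells, 51 carried at least 2 T cell and 2 macrophage markers. These 51 cells held 293 CPM of Alox5ap and the other 32 held 377 CPM. In heart 4 the marked cells were the higher (386 against 209 CPM). The part of macrophage RNA in this level was not tested.

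Alox5 itself was sparse, with 38 UMIs in 30 cells. Of these UMIs 42.1% lay in Mo-DCs and 28.9% in macrophages. It was found in 0 of 2762 B cells, NK cells, NKT cells, Tn, Tcm, Tem/eff and Trm-like cells together, which allows up to 0.109% of cells with a UMI and sets no limit on cells that express the gene below detection. In Mo-DCs it was at 0, 0 and 19.4 CPM in hearts 1, 2 and 3 and at 108, 0 and 10.5 CPM in hearts 4, 5 and 6. Heart 4 held 9 of the 16 UMIs, and without it Mo-DCs held 26.9% of all Alox5 UMIs. Alox5 was found together with its partner Alox5ap in 26 of 30 cells, and in all 14 Alox5-positive Mo-DCs, where 51.6% of the other Mo-DCs held Alox5ap. The positive Mo-DCs were deeper, with a median of 2881 UMIs against 2188.

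Lta4h, the hydrolase that makes leukotriene B4, was spread over lymphocytes. It was highest in NKT cells (119 ± 23.6 CPM) and NK cells (98.3 ± 25.3, n = 6 each), which did not differ beyond their spread, and the NK cells stood above Tem/eff cells (70.6 ± 15) by more than the larger SD. From Tem/eff cells down to B cells at 25.1 ± 12.6 CPM, no neighbours differed beyond their spread. The lymphocyte types other than unconventional T cells held Alox5ap at 4.83 CPM (Tn) to 32.0 CPM (Tregs).

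Ltc4s, the synthase of the cysteinyl leukotrienes, was found in 36 cells, and 63.6% of its 66 UMIs lay in macrophages. There the level was 3.60, 0 and 31.1 CPM in hearts 1, 2 and 3 and 0, 50.3 and 4.31 CPM in hearts 4, 5 and 6, so that 2 hearts, numbers 3 and 5, held 36 of 42 UMIs. A single cell of heart 5 held 9 of that heart's 11. All 14 of the positive macrophages also held Alox5ap, against 85.1% of the other macrophages, which were shallower (a median of 6560 UMIs against 8209). With an SD of 21.0 around a mean of 14.9 CPM, macrophages did not stand beyond their spread from Mo-DCs, and Mo-DCs ranked first when heart 1, 3 or 5 was left out.

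Ltb4r1, the high-affinity leukotriene B4 receptor, was highest in monocytes at 109 ± 45.1 CPM (n = 4), then Mo-DCs at 74.4 ± 61.1 (n = 4), macrophages at 65.3 ± 34.2 (n = 6), unconventional T cells at 56.8 ± 25.5 (n = 3) and cDCs at 34.2 ± 25.5 (n = 4). No neighbours in this order differed by more than their spread. The receptor was found in 53.2% of monocytes, 30.8% of macrophages and 0.64% of NK cells, or 17.2%, 10.2% and 0.42% at 1500 UMIs. Heart 1 held 57 of the 82 positive monocytes, and without it the share was 34.7%.

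**Figure D2:**
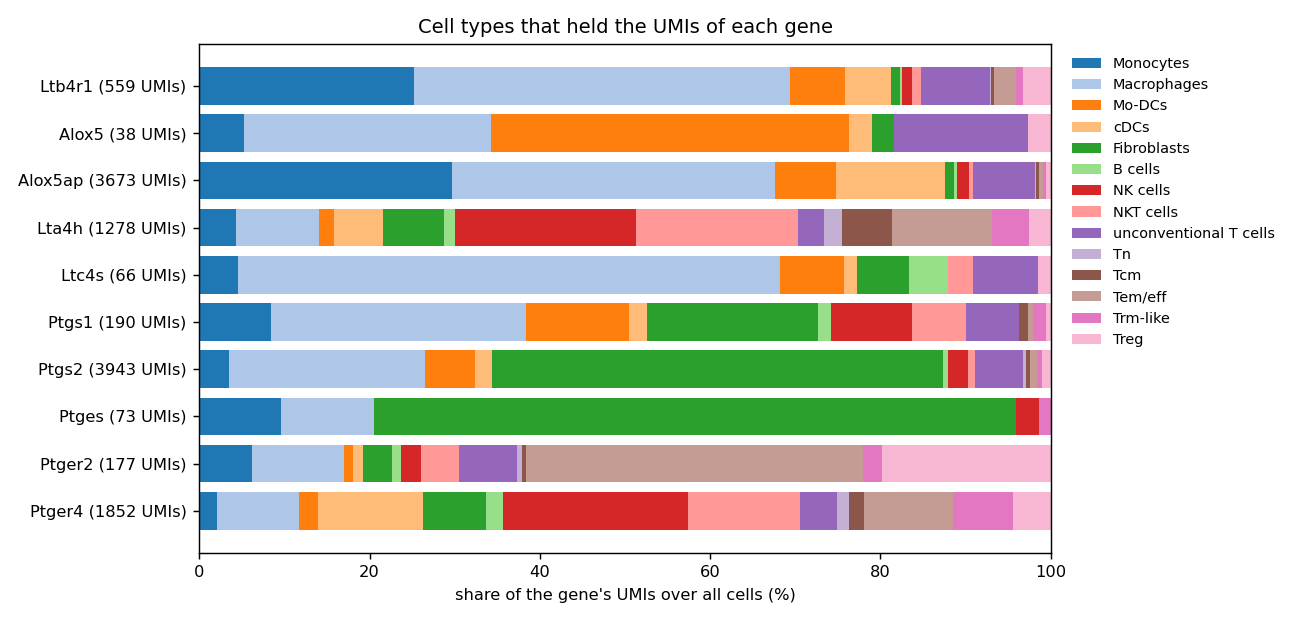
Share of each gene's UMIs (horizontal axis, percent) that each annotated type held, with the total of UMIs beside each gene name. Macrophages and monocytes held 44.2% and 25.2% of the Ltb4r1 UMIs (monocytes 14.4% without heart 1), fibroblasts held 75.3% of the Ptges UMIs, and Tem/eff cells held 39.5% of the Ptger2 UMIs.

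Among the prostaglandin enzymes, Ptgs2 (COX-2, the inducible form) had 3943 UMIs, of which fibroblasts held 53.0% and macrophages 23%. Heart 3 held 1550 of the 2091 fibroblast UMIs, and without it fibroblasts held 33.9% and macrophages 33.6%. Its level in fibroblasts was 698 ± 94.2 CPM (n = 4), above Mo-DCs at 386 ± 259 by more than the larger SD, and macrophages followed at 332 ± 160 (n = 6). Lymphocytes other than unconventional T cells held 14.4 to 44.7 CPM. The UMIs were unevenly spread over cells. Of the fibroblasts 46.9% held a UMI, and 1 cell held 219 of the 2091. The 6 fibroblasts of heart 2 held 29 UMIs, all of them in 1 cell.

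Ptges, which encodes the inducible prostaglandin E synthase that acts after COX-2, was found in 49 cells, and fibroblasts held 75.3% of its 73 UMIs. It was at 19.7 ± 6.66 CPM in fibroblasts (n = 4), above monocytes at 5.45 ± 9.87 by more than the larger SD, and it was found in 0 of 2190 cells over 9 other types, Mo-DCs and cDCs among them, which allows up to 0.137% of cells with a UMI. Of the 39 fibroblasts with Ptges, 22 also held Ptgs2 (56.4%, against 45.8% of the others, with medians of 6896 and 5659 UMIs).

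Ptgs1 (COX-1, the constitutive form) was highest in Mo-DCs at 58.3 ± 26.1 CPM (n = 4), above monocytes at 21.3 ± 33.5 by more than the larger SD. Macrophages held 30.0% of its 190 UMIs (17.6% without heart 1) and fibroblasts 20% (9.65% without heart 3). COX-1 is abundant in platelets, and a UMI of the platelet gene Pf4 was found in 17.1% of the 140 cells with Ptgs1 and in 3.91% of other cells. The cells with Ptgs1 were also deeper, with a median of 5842.5 UMIs against 3649. The 6 platelet markers summed to more CPM in Mo-DCs (139) than in any other type (122 in macrophages), with 3 of them found there and Gp9, Gp1bb and Gp1ba at 0. Of the 16 Mo-DCs with Ptgs1, 1 held Pf4 (6.25%, against 6.38% of the other Mo-DCs). The part of platelet RNA in the Ptgs1 level was not tested.

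The E2 receptors differed in where they were read. Ptger4 was broad, and was highest in cDCs at 192 ± 48.5 CPM (n = 4), NK cells at 147 ± 45.8 (n = 6) and NKT cells at 125 ± 47.7 (n = 6). No neighbours in its order, down to Tcm at 26.4 ± 16.5, differed beyond their spread. It was found in 49.7% of cDCs and 9.05% of Tn, or 20.7% and 5.36% at 1500 UMIs. Ptger2 was narrower. Tregs held it at 35.6 ± 23.7 CPM and Tem/eff cells at 32.2 ± 12.5 (n = 6 each), which did not differ beyond their spread, and the latter stood above unconventional T cells (11.8 ± 7.11, n = 3) by more than the larger SD. Tem/eff cells ranked first when heart 2 or 6 was left out. Tcm and Tn, the memory and naive T cells, held 0.977 and 3.64 CPM. Of the 52 Tem/eff cells with Ptger2, 23 also held Ptger4 (44.2%, against 35.6% of the others), and of the 23 such Tregs 7 did (30.4% against 20%). The Ptger2-positive cells were deeper, with medians of 6466 against 5642 UMIs in Tem/eff cells and 3350 against 2842 in Tregs.

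Markers of other cells moved with several of these levels. The 43 of 204 Mo-DCs with at least 4 of the 8 neutrophil markers held 135 CPM of Ltb4r1 against 36.2 in the other Mo-DCs, 776 against 466 CPM of Alox5ap, 48.2 against 20.4 of Alox5 and 91.6 against 30.7 of Ptgs1. For Ptgs2 the same cells held 516 against 493 CPM. Heart 4 gave 10 of the 43 cells, and without it the marked cells held 71.8 CPM of Ltb4r1, 18.2 of Alox5 and 60.7 of Ptgs1. In heart 1 the 4 marked cells held 0 CPM of Ltb4r1 and of Ptgs1, against 63.1 and 65.3 in the others. In heart 6 the 1 marked cell held 0 CPM of Ltb4r1, Ptgs1 and Alox5, against 39.7, 56.9 and 11.1. These 3 genes were higher in the marked cells of hearts 3 and 4 only. Alox5ap was higher in the marked cells of each of the 6 hearts, but hearts 2, 5 and 6 had 1 marked cell each. Neutrophils are known to hold Alox5, Alox5ap and Ltb4r1. A further 9 Mo-DCs, 8 of them from heart 3, carried at least 2 of 8 mast cell or basophil markers, a mark chosen after the values were seen, and these held 1253 CPM of Alox5ap (498 in the others), 105 of Alox5 (22.6) and 987 of Ptgs2 (475). The 64 of 375 fibroblasts with at least 3 endothelial markers held 58.1 CPM of Ptgs1 against 5.01 in the others, 282 against 840 of Ptgs2, 3.90 against 25.0 of Ptges and 23.7 against 70.2 of Ptger4. Heart 3 gave 46 of these cells, and the hearts differed. For Ptgs2 the marked cells were lower in hearts 2 (0 against 631 CPM, 2 marked cells), 3 (158 against 908) and 4 (12.8 against 879) and higher in hearts 1 (1672 against 422, 5 marked cells) and 6 (1158 against 751, 2 marked cells). Without heart 3 the marked and other fibroblasts held 22.4 and 7.83 CPM of Ptgs1, 599.6 and 664 of Ptgs2 and 13.9 and 21 of Ptges. With the neutrophil-marked and endothelial-marked cells left out, together with T cells that held at least 3 ILC2 markers and cells that held at least 2 T cell and 2 macrophage markers, 8 of the 10 members kept their highest type. The exceptions were Ptger2 (Tem/eff cells) and Ptger4 (unconventional T cells, for which heart 1, with 11 such cells left, was then the one heart with at least 10). The basophil-marked cells stayed in.

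**Figure D3:**
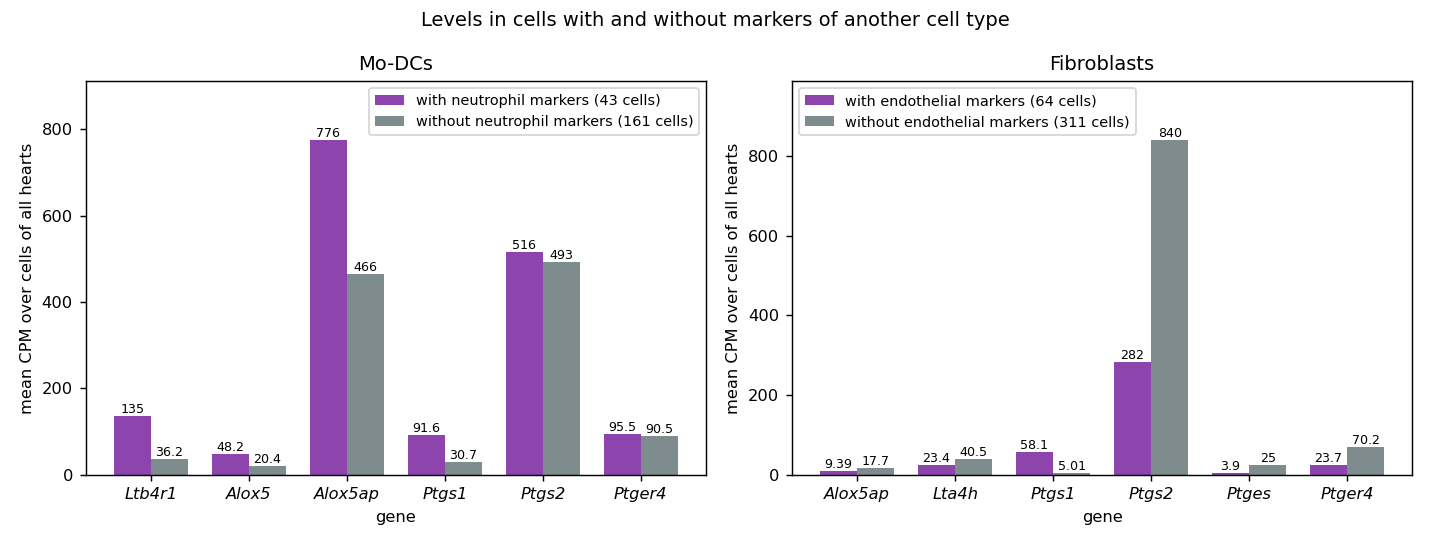
Mean CPM over the cells of all hearts (bars, vertical axis) in Mo-DCs with and without 4 or more neutrophil markers and in fibroblasts with and without 3 or more endothelial markers. Over the pooled cells Ltb4r1, Alox5ap and Ptgs1 were higher in the marked Mo-DCs, but for Ltb4r1 and Ptgs1 hearts 1 and 6 went the other way. Marked fibroblasts held more Ptgs1 and less Ptgs2, Ptges and Ptger4, but for Ptgs2 hearts 1 and 6 went the other way.

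The grafts were then compared within each type, which asks whether the pathway differed with the IL-33 of the donor heart. No member passed an adjusted p of 0.05 in a type or in all cells together, by limma (0 of 77 tests in the types, and 0 of 10 in all cells) or by limma-voom on UMIs. Over all genes and types 0.00884% of tests were called, and in all cells 0%. The unadjusted p was 0.05 or less in 7 of the 77, where 4.71% of all genes had such a p. The study states thresholds of 2-fold and an unadjusted p up to 0.05, which it set on another test, the GSA algorithm of the Partek software. Here they were applied to the limma fit of hearts. At these thresholds 5 of the 77 were higher in the IL-33+ hearts (6.49%, where 1.44% of all genes were) and 0 lower. The share of all genes that were lower is not given here, so the 0 is not read as a direction. The 5 that were higher are named next. These were Ltb4r1 in macrophages and in Tregs, Ptgs2 in Mo-DCs, Ptger4 in monocytes and Ptger2 in unconventional T cells. The IL-33+ hearts all lay above the IL-33- hearts in 9 of the 77 (11.7%, against 4.87% of all genes) and all below in 3 (3.90%, against 4.94%). The median log2 fold change of the 77 was 0.19, and the types' medians over all genes lay between -0.08 and 0.28. A pair of member and type was tested with at least 10 UMIs, found in at least 3 hearts. The other 63 pairs held at most 16 UMIs, and 22 of them 0. The tests share hearts and are not independent. With 3 hearts against 3 an exact permutation test cannot give a p under 0.1.

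**Figure D4:**
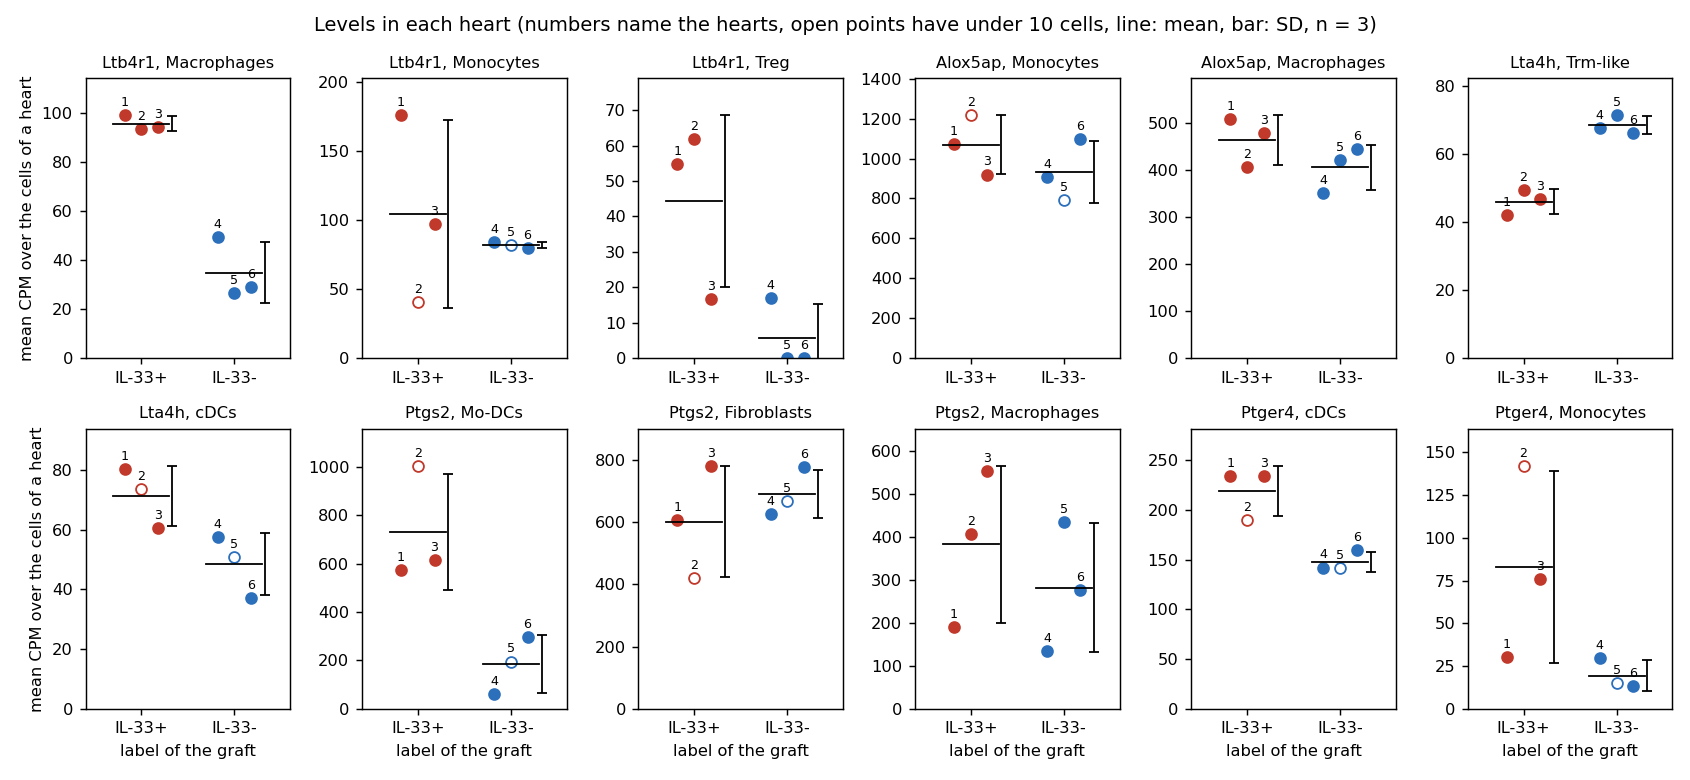
Mean CPM over the cells of each heart (points, named by the number of the heart, open where the heart had fewer than 10 cells of the type) for 12 pairs of gene and type, with the mean and SD of each group (n = 3). The groups did not overlap for Ltb4r1 in macrophages, Lta4h in Trm-like cells and cDCs, Ptgs2 in Mo-DCs and Ptger4 in cDCs and monocytes, and overlapped in the other 6 panels.

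In macrophages Ltb4r1 was at 99.2, 93.3 and 94.4 CPM in the IL-33+ hearts and at 49.3, 26.6 and 28.8 CPM in the IL-33- hearts, from 207 and 40 UMIs. The groups did not overlap, and the spread between the IL-33+ hearts was small (95.6 ± 3.13 against 34.9 ± 12.5 CPM, SD, n = 3), giving a log2 fold change of 1.27 (SE 0.35, unadjusted p = 0.00154, adjusted p = 0.959 by limma). In macrophages 0.744% of genes were as much as 2-fold higher at that threshold, 3.82% had all IL-33+ hearts higher and 0 were called by adjusted p. The share of macrophages with an Ltb4r1 UMI was 35.9%, 30.0% and 33.7% in hearts 1, 2 and 3 and 23.9%, 19.0% and 16.2% in hearts 4, 5 and 6. Heart 2 had 10 macrophages, of which 1 held 5 of its 7 UMIs. Monocyte markers, summed over 5 genes all of which were found, were at 1872, 1892 and 1541 CPM in macrophages of the IL-33+ hearts and at 2753, 1878 and 1815 in those of the IL-33- hearts, and their part was not tested.

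The groups overlapped for Ltb4r1 in the other myeloid types. In monocytes it was at 176, 40.3 and 97.3 CPM against 83.8, 81.9 and 79.9 (log2 fold change 0.12, SE 0.51), and in cDCs at 23.6, 0 and 29.4 against 12.7, 41.2 and 70.9 (-0.94, SE 0.67). The difference between the fold changes of macrophages and cDCs, a pair chosen after the values were seen, was 2.21 (SE 0.76, unadjusted p = 0.0183, adjusted p = 0.825 by limma on the within-heart difference), and between macrophages and monocytes 1.14 (SE 0.59, adjusted p = 0.927). In Tregs the receptor gene was read from 18 UMIs in 13 of 263 cells, in 3 of 27, 4 of 25 and 4 of 98 cells of hearts 1, 2 and 3 and in 2 of 55, 0 of 25 and 0 of 33 of hearts 4, 5 and 6. Treg hearts 3 (16.7 CPM) and 4 (16.9 CPM) overlapped, and the log2 fold change of 1.84 (SE 0.67) had an adjusted p of 0.867 by limma, where 1.92% of Treg genes were past the study's thresholds upward and 0 were called. The paper, by its own test, reports Ltb4r1 among the tissue-residency genes that IL-33 of the graft induced in Tregs. The 16 Tregs with at least 3 ILC2 markers held 6 of the 18 UMIs. In unconventional T cells, of which hearts 2, 5 and 6 had 2, 7 and 4, the levels were 72.7, 46.6 and 70.4 against 27.4, 22.1 and 0 CPM (log2 fold change 1.66, SE 0.84, adjusted p = 0.984 by limma), and 1.06 without heart 6.

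Alox5ap, the partner of 5-lipoxygenase, overlapped between the groups in 12 of the 13 types tested. In monocytes it was at 1072, 1218 and 920.2 CPM in the IL-33+ hearts and at 906, 793 and 1098 in the IL-33- hearts, and in macrophages at 509.9, 406 and 479 against 352, 421 and 445. The log2 fold changes were 0.20 (SE 0.22) and 0.19 (SE 0.21). B cells, with 12 Alox5ap UMIs in all, were the one type in which its groups did not overlap (11, 22.2 and 27.5 against 10.2, 0 and 0 CPM), where 7.03% of genes had all IL-33+ hearts higher. Alox5 and Ltc4s each overlapped between the groups in the types where they were tested.

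Lta4h lay in opposite directions in different types. It was at 42.0, 49.3 and 46.8 CPM in Trm-like cells of the IL-33+ hearts and at 67.8, 71.5 and 66.3 in those of the IL-33- hearts (log2 fold change -0.49, SE 0.39, adjusted p = 0.929 by limma). Tcm were likewise lower, at 38.1, 52.8 and 47.8 against 58.5, 109 and 66.8 CPM (-0.61, SE 0.36). NK cells were higher, at 97.5, 138 and 113 against 65.9, 78.9 and 96.8 CPM (0.48, SE 0.24), and cDCs at 80.2, 73.6 and 60.5 against 57.6, 51.0 and 37.1 (0.49, SE 0.42). The groups did not overlap in these 4 types. All IL-33+ hearts were lower for 5.53% of genes in Trm-like cells and 5.05% in Tcm, and higher for 5.83% in NK cells and 7.34% in cDCs. The differences between types had adjusted p of 0.838 to 0.946 by limma. Over all cells the groups overlapped for Lta4h, at 61.5, 69.9 and 60.4 against 61.6, 75.5 and 69.8 CPM.

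**Figure D5:**
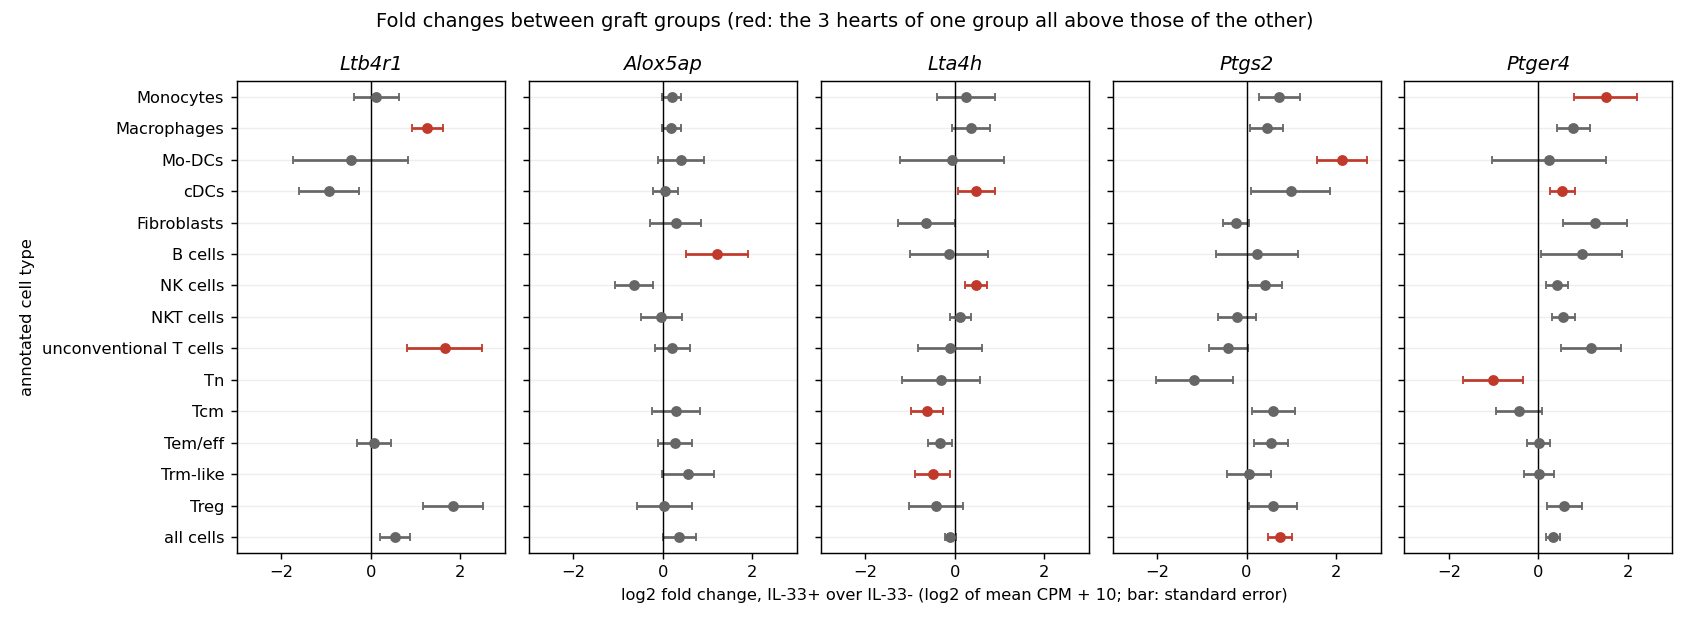
Log2 fold change of IL-33+ over IL-33- hearts (horizontal axis, on log2 of mean CPM + 10, bars are standard errors) for 5 genes in the types where each was tested. Red marks groups that did not overlap, as for Ltb4r1 in macrophages at 1.27 and Ptgs2 in Mo-DCs at 2.13, and Lta4h has red points on both sides of 0.

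Among the prostaglandin enzymes the widest gap was that of Ptgs2 in Mo-DCs. It was at 572, 1005 and 615 CPM in the IL-33+ hearts and at 59.6, 195 and 298 in the IL-33- hearts, and the groups did not overlap. The log2 fold change was 2.13 (SE 0.56, unadjusted p = 0.000139, adjusted p = 0.113 by limma). That SE was drawn toward genes of similar level, so the p does not measure the spread between these hearts alone. In Mo-DCs 0.0702% of genes were called by adjusted p, 1.67% were 2-fold higher at the study's thresholds and 3.95% had all IL-33+ hearts higher. The adjusted p was 0.0379 from summed UMIs, 0.0178 without the marked cells and 0.0149 without heart 6, and ran up to 1.00 over the other alternatives. Heart 2 had 4 Mo-DCs, of which 1 held 12 of the 13 UMIs, and heart 5 had 7. Without these hearts, which leaves 2 hearts in each group, the log2 fold change was 2.04 (adjusted p = 1.00 by limma), and it was lowest without heart 4, at 1.51 (adjusted p = 0.581 by limma). The share of Mo-DCs with a Ptgs2 UMI was 32.4%, 50% and 35.1% in hearts 1, 2 and 3 and 10.7%, 28.6% and 35.3% in hearts 4, 5 and 6, which overlap. Neutrophil markers, all 8 found, summed to 2050, 9250 and 9361 CPM in the Mo-DCs of hearts 1, 2 and 3 and to 70845, 16190 and 2400 in those of hearts 4, 5 and 6. The 9 Mo-DCs with mast cell or basophil markers, 8 from heart 3 and 1 from heart 6, held 987 CPM of Ptgs2 against 475 in the others, and their part was not tested. The neutrophil gene S100a8 was itself among the 4 genes called in Mo-DCs (log2 fold change -1.88, adjusted p = 0.0122 by limma). Its groups overlapped even so, at 329, 3606 and 3162 CPM against 35293, 11168 and 482 CPM. Among Mo-DCs without the neutrophil mark and other marks the Ptgs2 log2 fold change was 2.45 (SE 0.58). The neutrophil mark did not take out all S100a8. Mo-DCs without it still held 0, 0 and 190 CPM of S100a8 in hearts 1, 2 and 3. In hearts 4, 5 and 6 they held 9767, 1243 and 18.8 CPM. The part of neutrophil RNA in the Ptgs2 difference was not tested.

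In fibroblasts, the type with its highest level, Ptgs2 was at 606, 421 and 780.3 CPM in the IL-33+ hearts and at 628, 669 and 778 in the IL-33- hearts (log2 fold change -0.23, SE 0.29). Macrophages held 189, 407 and 553 against 134, 434 and 277 CPM (0.45, SE 0.36) and monocytes 113, 593 and 188 against 36.1, 259.7 and 247 (0.73, SE 0.46). The groups overlapped in these types. The fold change in Mo-DCs minus that in macrophages was 1.68 (SE 0.81) and minus that in monocytes 1.40 (SE 0.82), with adjusted p of 1.00 and 0.960 by limma, and these pairs were chosen after the values were seen.

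Over all cells Ptgs2 was at 117, 99.7 and 233 CPM in the IL-33+ hearts and at 67.7, 74.6 and 96.8 in the IL-33- hearts, without overlap, with a log2 fold change of 0.76 (SE 0.27, unadjusted p = 0.0212, adjusted p = 0.941 by limma). Of all genes 4.46% had all IL-33+ hearts higher in this comparison. Fibroblasts were 3.93%, 2.61% and 16.2% of the cells of hearts 1, 2 and 3 and 3.71%, 1.41% and 5.37% of those of hearts 4, 5 and 6, and without heart 3 the log2 fold change was 0.41. Ptgs1 over all cells was at 11.8, 7.90 and 9.14 against 7.66, 4.5 and 6.16 CPM (0.28, SE 0.15), and within types its groups overlapped in each of the 6 that were tested. Ptges in fibroblasts was at 10.2, 0 and 22.1 against 25.7, 76.3 and 20.8 CPM, from 39 and 16 UMIs, and the groups overlapped. The share of a type among cells also enters Alox5ap and Ltb4r1 over all cells. Heart 1, in which macrophages were 22.2% and monocytes 9.47% of cells, held 276 CPM of Alox5ap and 47.6 of Ltb4r1, where the other 5 hearts held 75.8 to 124 and 8.35 to 17.0. An Ltb4r1 UMI was also found in 69.5% of the monocytes of heart 1, against 20% to 40% in the other hearts. The parts of share and of level in these values were not tested.

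Of the prostaglandin receptors, Ptger4 had a log2 fold change above 0 in 12 of 14 types, and 3 of the 14 had an unadjusted p up to 0.05, where 4.71% of all genes did. In cDCs, its highest type, it was at 234, 189.8 and 234 CPM in the IL-33+ hearts and at 142, 142 and 159.7 in the IL-33- hearts, without overlap, from 142 and 87 UMIs, a log2 fold change of 0.53 (SE 0.28, adjusted p = 0.778 by limma). Hearts 2 and 5 had 6 and 9 cDCs. The share of cDCs with a Ptger4 UMI, 39.5%, 50% and 59.1% in hearts 1, 2 and 3 and 45.8%, 55.6% and 53.8% in hearts 4, 5 and 6, overlapped. B cell markers in cDCs, all 4 found, summed to 27 to 205 CPM in the IL-33+ hearts and 9 to 84 in the IL-33- hearts.

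In monocytes Ptger4 was at 30.5, 142 and 76.2 against 29.9, 15.2 and 13.3 CPM, from 29 and 9 UMIs (log2 fold change 1.50, SE 0.70, adjusted p = 0.965 by limma). The log2 fold change was 0.56 with limma-voom, 0.86 at a pseudocount of 50 CPM, and 0.95 without the hearts with fewer than 10 monocytes. In that type 1.81% of genes were 2-fold higher, 4.91% had all IL-33+ hearts higher and 0.014% were called. Hearts 1 and 4 were the nearest of the groups to each other, and heart 2 had 5 monocytes. In macrophages Ptger4 was at 45.2, 123 and 101 against 51.1, 40.6 and 41.6 CPM (0.78, SE 0.37), and in NKT cells at 107, 212 and 136 against 107, 116 and 71.1 (0.55, SE 0.26), with overlap in both. Tn went the other way without overlap, at 20, 24.5 and 23 against 50.6, 70.6 and 49.2 CPM (-1.03, SE 0.67), from 7 UMIs in the IL-33+ and 20 in the IL-33- hearts. In Tn 5.44% of genes had all IL-33+ hearts lower.

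Ptger2 in Tregs was at 16.8, 67.5 and 59.9 CPM against 18.8, 11.9 and 38.8 (log2 fold change 0.74, SE 0.59) and in Tem/eff cells at 27.6, 22.1 and 51.0 against 33.4, 41.5 and 17.3 (0.09, SE 0.36), and the groups overlapped. In unconventional T cells it was at 18.1, 93.2 and 13.2 against 4.11, 0 and 0 CPM, from 11 UMIs and 1 UMI, without overlap (1.86, SE 0.84, adjusted p = 0.984 by limma). The log2 fold change was 1.19 without heart 2 and 0.86 without the hearts with fewer than 10 of these cells. In these cells 1.51% of genes were 2-fold higher, 3.68% had all IL-33+ hearts higher and 0.0272% were called by adjusted p.

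The rest of the pathway was read from lists of 41 other genes, 39 of which were in the table. Of 138 tests of these in the 14 types, 0 passed an adjusted p of 0.05 by limma and 5 an unadjusted one (4.71% of all genes did). All IL-33+ hearts were higher in 10 (7.25%, against 4.87% of all genes) and lower in 9 (6.52%, against 4.94%). Fibroblasts held the highest levels of the prostacyclin synthase Ptgis (255 ± 40.2 CPM, n = 4), the leukotriene D4 dipeptidase Dpep1 (315 ± 89.2) and the cytosolic phospholipase Pla2g4a (47.7 ± 6.96). Their summed prostanoid enzymes and transporters came to 633 CPM against 492 in macrophages. Mo-DCs ranked first for the thromboxane synthase Tbxas1 (88.7 ± 13.4 CPM, with unconventional T cells at 76.1). They also did for the prostaglandin D synthase Hpgds (45.6 ± 27.2, with B cells at 39.7). Neither gap was beyond the spread. NK cells and NKT cells held the cysteinyl leukotriene receptor Cysltr2 (72 ± 12 and 64.0 CPM). Cysltr1 was about level in macrophages (34.7 ± 10.3) and unconventional T cells (34.0). Summed phospholipases came to 294 CPM in macrophages and 278 in monocytes, and summed prostanoid receptors to 51.6 CPM in monocytes and 48.3 in fibroblasts. The other leukotriene enzymes and exporters summed to 428 CPM in fibroblasts and 177 in macrophages. The other leukotriene receptors summed to 73.2 CPM in NK cells and 64.9 in NKT cells. In monocytes Ptgir, the prostacyclin receptor gene, was at 49.3 ± 17.4 CPM.

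Past the study's thresholds were 3 of the 138 upward (2.17%, against 1.44% of all genes) and 1 downward, for which no share of all genes is given here. They were Cysltr1 in cDCs (20.1, 11.6 and 20 against 6.12, 0 and 0 CPM), Ptgir in cDCs (36.0, 58.1 and 4.38 CPM against 0 in each IL-33- heart, from 18 UMIs), Tbxas1 in unconventional T cells (71.2, 116 and 117 against 39.8, 24.9 and 22.8 CPM) and, lower in the IL-33+ hearts, the prostaglandin E synthase gene Ptges2 in NK cells (4.03, 0 and 7.84 against 9.10, 26.1 and 19.5 CPM). Their adjusted p values by limma lay between 0.621 and 0.984. In macrophages Pla2g7, which encodes a phospholipase that inactivates platelet-activating factor, was at 182, 125 and 266 against 344, 353 and 271 CPM (log2 fold change -0.78, SE 0.27, adjusted p = 0.987 by limma), without overlap, where 5.15% of genes had all IL-33+ hearts lower.

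Over the 14 types the genes most like 9 of the members were found by Pearson's r of log2 levels, as a description among 10072 genes with at least 100 UMIs. The points of each r share libraries and depth. Ltb4r1 was most like Gpr35 (r = 0.98) and Gpr141 (0.97), Alox5ap like Wfdc17 and Mpeg1 (0.99 each), Alox5 like Hcar2 (0.98), Lta4h like Myl6 (0.94), and Ltc4s like Ccl12 (0.95), C1qb (0.94) and Mrc1 (0.93). Ptgs1 was most like Stard8 (0.96), Ptges like Pcdh18 (0.96), Ptger2 like Cacna1d (0.94) and Ptger4 like Borcs6 (0.83), the lowest of these.

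The members are protein-coding genes on 8 chromosomes of GRCm38. Ltb4r1 spans 55765962 to 55768494 of chromosome 14, Alox5 116410077 to 116461178 of chromosome 6, Alox5ap 149264767 to 149288153 of chromosome 5 and Ptgs2 150100031 to 150108227 of chromosome 1. Exons of Alox5ap (Gm19719), Ltc4s (Gm26542), Ptgs1 (Gm43621), Ptger2 (Gm17173 and Gm49364) and Ptger4 (Ttc33 and Gm15937) overlap exons of genes annotated on the other strand. The strand setting of the counting is not given in the sources used here, so the levels of these members are uncertain to that extent.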

How the data were processed

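Single cells of 6 hashtagged hearts (3 per group) were sequenced with a 10x Genomics 3' kit as 1 pooled library with a hashtag library. The authors counted reads with Cell Ranger, filtered and annotated cells in Partek (10.0.23.0425), and deposited log2 (CPM + 1) values per cell with the heart, group and cell type of each. UMIs were recovered from these values: of values up to 10 UMIs, 99.94% lay within 0.05 of a whole number. No column with a sample of another series was used. Per the methods, the authors removed likely doublets and poor cells by limits on counts and genes per cell before deposit, and no doublet caller was run here.

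The mean CPM over a heart's cells of a type was compared as log2 (mean CPM + 10) with limma 3.58.1 (eBayes with trend, R 4.3.3), on genes with at least 10 UMIs and a UMI in at least 3 hearts. The trend draws each SE toward genes of similar level, so SEs and p-values do not measure a gene's own spread between hearts alone. Differences between types were fitted without the trend. P-values were adjusted by Benjamini-Hochberg over all genes of the type and called at 0.05. Fold changes are on that scale, which understates low genes. Limits for a count of 0 use 3 counts and, like all shares of cells, cover counting error only. The hearts are separate grafts. The fit was run on simulated counts drawn per heart, with the same dispersion for all genes and no variation between cells. That setting is simpler than these data, and its outcome is not reported here.

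All 10 members were described in every type, and of the other pathway genes those past the study's thresholds, the highest type of each list, and Pla2g7, Ptgis, Dpep1, Pla2g4a, Tbxas1, Hpgds, Cysltr1, Cysltr2 and Ptgir, whose levels were chosen for the text after they were seen. The 3 genes most alike were found for each member. Those of Ptgs2 are not reported here. The members and lists were chosen with earlier results of these data known. Positions are from the GRCm38 annotation. Alternatives were other pseudocounts (1 and 50 CPM), no filter, summed UMIs, limma-voom, no trend, quantile normalization, small hearts or marked cells left out, and each heart left out.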

Additional observations from a re-analysis of the deposited data

Results flagged for a closer look

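Lta4h and Ptger4 were picked out because every IL-33+ heart lay above the IL-33- hearts in one type and below them in another. The difference between the log2 fold changes of the types was tested with limma, without the trend, on the difference within each heart. No pair passed an adjusted p of 0.05. Picking the pairs in this way fixed the sign of each difference and lowers its unadjusted p, so these p-values lend no support. For Lta4h, the leukotriene A4 hydrolase gene, NK cells minus Tcm was 1.09 (SE 0.38, unadjusted p = 0.0174, adjusted p = 0.939 by limma) and NK cells minus Trm-like cells 0.97 (adjusted p = 0.946 by limma). For the same gene cDCs minus Tcm was 1.10 (adjusted p = 0.855 by limma) and cDCs minus Trm-like cells 0.97 (adjusted p = 0.838 by limma). For Ptger4, the EP4 receptor gene, monocytes minus Tn was 2.53 (SE 0.67, unadjusted p = 0.00495, adjusted p = 0.919 by limma) and cDCs minus Tn 1.56 (adjusted p = 0.824 by limma). The Ptger4 pairs rest on 27 UMIs in Tn and 38 in monocytes.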

How the results depend on the processing

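Over the alternatives of the 15 fold changes followed, 3 passed the threshold, all for Ptgs2 in Mo-DCs. These fold changes were followed because their groups did not overlap or they passed the study's thresholds, so that they kept their sign says nothing of their stability. The count of members called, 0 in the report, was 1 with summed UMIs and 1 without marked cells, and 0 to 1 when a heart was left out. The 5 members past the study's thresholds became 3 at a pseudocount of 1 CPM, 1 at 50 CPM and 8 without trend, and 3 (without heart 3) to 8 (without heart 1) when a heart was left out. At 50 CPM the count of all genes past these thresholds fell in every type, in macrophages from 187 to 12 and in Mo-DCs from 193 to 171. For the other settings no share of all genes is given here. These counts are therefore not read as a result about the members. The 10 genes called over all types became 3 at 1 CPM, 37 at 50 CPM, 67 without the filter, 28 with limma-voom, 0 without trend, 22 without marked cells and 1 after quantile normalization, and 4 to 108 when a heart was left out, the latter without heart 1. The cause was not tested. The highest type was kept by 9 to 10 members when a heart was left out, and by 10 when hearts with any number of cells were used, an alternative chosen after seeing the data, as were the pooled shares and marked-cell levels without a heart. No paired analysis was possible because the hearts are numbered 1 to 3 in one group and 4 to 6 in the other. Depth limited Alox5, Ltc4s and Ptges, with 38, 66 and 73 UMIs in all.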
